A study of Mus musculus with 21 samples.

Results

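A set of 10 genes of protein folding and disposal in the endoplasmic reticulum (ER) was followed in spinal cord of mice that lack TDP-43 in oligodendrocytes. They are Hspa5, Hsp90b1, Dnajb9, Calr, Pdia4, Sdf2l1, Creld2, Edem1, Herpud1 and Xbp1, which were chosen by symbol as known targets of the unfolded protein response. The authors' deposited tables hold all 10, out of 18101 genes at postnatal day 21 (P21) and 16928 at about day 60 (P60). The file of values per library holds 8 of them, out of 25127 genes. Sdf2l1 and Creld2 are not analysed here per library, and their values come from the authors' deposited tables only.

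RNA was sequenced from whole spinal cord of 21 C57BL/6 mice, 1 library per mouse. Tardbp encodes TDP-43, an RNA-binding protein, and was deleted by Cre recombinase expressed from Cnp, a gene of the oligodendrocyte lineage. The cKO mice carried Cnp-Cre and 2 floxed alleles of Tardbp, the cHET mice carried Cnp-Cre and 1 floxed allele (Tardbp-fl/+), and the controls carried 2 floxed alleles (Tardbp-fl/fl) without Cre. Each P21 group had 4 mice of 21 days, 2 female and 2 male, with libraries from a TruSeq kit. Each P60 group had 3 mice with libraries from a NEXTflex kit. The P60 cKO mice were male and 61 to 64 days old, the P60 cHET mice were male and 60 to 65 days old, and the P60 controls were female and 74 days old. At P60, sex and age therefore cannot be told apart from genotype in any comparison with control, whereas cKO and cHET mice share sex, age and Cre. In whole cord, fewer cells of a type and less RNA per cell cannot be told apart. Replicate numbers name mice in no order.

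The lumen of the ER is where secreted and membrane proteins fold. When unfolded protein builds up, the sensors IRE1 (encoded by Ern1), ATF6 and PERK (encoded by Eif2ak3) start the unfolded protein response. IRE1 splices Xbp1 mRNA, ATF6 is cut to release a transcription factor, and PERK slows translation and favours ATF4. XBP1 and ATF6 raise chaperones and the machinery of ER-associated degradation, which sends misfolded proteins to the proteasome. Oligodendrocytes make large amounts of membrane protein and lipid for myelin and are known to depend on this pathway.

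A DNA element through which ATF6, XBP1 and NF-Y act on genes of this response is the ER stress response element (ERSE), written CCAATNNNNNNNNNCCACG. A shorter form, ERSE-II, is ATTGGNCCACG. Both strands of RefSeq promoter windows (GRCm38.p6, 250 bases before to 50 after each gene start) were searched, and all 10 genes matched a window. Of the 10 genes, 4 held an ERSE: Hspa5 (1), Hsp90b1 (2), Calr (1) and Creld2 (1). Herpud1 held the ERSE-II. Over all 32851 windows the ERSE occurred in 39 (0.119%) and the ERSE-II in 12 (0.0365%). By gene, 37 (0.137%) and 12 (0.0444%) of 27025 held them. The 10 genes were chosen as known targets of the response that acts through these elements, so these counts do not test the set. The CCACG box alone, which lies within both elements, occurred in 9 of the 10 genes and in 32.8% of all windows. The CCAAT box, bound by NF-Y and also part of both elements on one strand or the other, occurred in 9 of the 10 and in 37.4% of all windows. The window of Xbp1 held none of these letters, which describes this window only. The full elements of the 5 genes that held one are shown. Each is read 5′ to 3′ on its own strand, with the defining boxes in capitals and the spacer in lower case.
Hspa5 ERSE: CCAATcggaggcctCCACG
Hsp90b1 far ERSE: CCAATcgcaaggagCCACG
Hsp90b1 near ERSE: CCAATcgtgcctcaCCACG
Calr ERSE: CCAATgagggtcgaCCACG
Creld2 ERSE: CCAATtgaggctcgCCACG
Herpud1 ERSE-II: ATTGGgCCACG

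The elements lie at different distances from the start. Counted from the RefSeq gene start, the Hspa5 element spans -65 to -47. The Hsp90b1 elements span -212 to -194 and -107 to -89, on opposite strands. The Calr element spans -162 to -144 and the Creld2 element -126 to -108, both on the strand opposite to the gene. The Herpud1 ERSE-II spans -52 to -42. The 250 bases before the start are shown for the 5 genes with a full element and for Edem1, the gene with the largest difference among the 8, whose window held the CCACG box 2 times and no full element. They are printed in the direction of transcription, with full elements in capitals, so that an element on the opposite strand appears as its reverse complement. In GRCm38 they lie at chr2:34771840-34772089 (plus strand) for Hspa5, chr10:86705445-86705694 (minus) for Hsp90b1, chr8:84846932-84847181 (minus) for Calr, chr15:88819396-88819645 (plus) for Creld2, chr8:94386179-94386428 (plus) for Herpud1 and chr6:108828391-108828640 (plus) for Edem1.
Hspa5: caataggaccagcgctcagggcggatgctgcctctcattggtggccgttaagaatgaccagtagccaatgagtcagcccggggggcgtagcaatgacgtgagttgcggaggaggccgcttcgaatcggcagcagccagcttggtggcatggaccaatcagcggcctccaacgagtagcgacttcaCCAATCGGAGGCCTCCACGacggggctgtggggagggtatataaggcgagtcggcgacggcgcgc
Hsp90b1: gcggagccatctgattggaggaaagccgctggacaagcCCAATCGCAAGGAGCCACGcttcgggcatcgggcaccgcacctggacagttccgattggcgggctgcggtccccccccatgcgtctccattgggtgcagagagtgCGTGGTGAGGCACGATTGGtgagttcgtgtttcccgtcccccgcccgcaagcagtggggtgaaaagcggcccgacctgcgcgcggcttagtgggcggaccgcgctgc
Calr: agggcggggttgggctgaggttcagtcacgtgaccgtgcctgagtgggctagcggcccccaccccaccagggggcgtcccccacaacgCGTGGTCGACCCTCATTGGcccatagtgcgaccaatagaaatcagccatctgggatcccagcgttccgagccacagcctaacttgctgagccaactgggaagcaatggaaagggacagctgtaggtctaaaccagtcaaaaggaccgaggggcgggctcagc
Creld2: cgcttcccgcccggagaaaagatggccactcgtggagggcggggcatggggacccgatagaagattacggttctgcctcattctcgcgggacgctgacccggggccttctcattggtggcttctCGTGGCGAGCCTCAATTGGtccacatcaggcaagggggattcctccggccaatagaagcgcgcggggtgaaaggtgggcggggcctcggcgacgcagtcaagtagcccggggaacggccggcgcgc
Herpud1: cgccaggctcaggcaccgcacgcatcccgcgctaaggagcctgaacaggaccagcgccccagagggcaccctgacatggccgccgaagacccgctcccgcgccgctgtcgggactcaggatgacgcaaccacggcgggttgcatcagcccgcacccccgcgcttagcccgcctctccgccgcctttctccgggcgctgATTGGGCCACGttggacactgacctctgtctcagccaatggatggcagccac
Edem1: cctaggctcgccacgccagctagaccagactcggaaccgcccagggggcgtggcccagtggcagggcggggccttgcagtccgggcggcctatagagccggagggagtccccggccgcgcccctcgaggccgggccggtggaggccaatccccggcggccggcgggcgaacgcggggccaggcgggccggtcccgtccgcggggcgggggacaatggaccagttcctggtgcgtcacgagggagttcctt

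**Figure D1:**
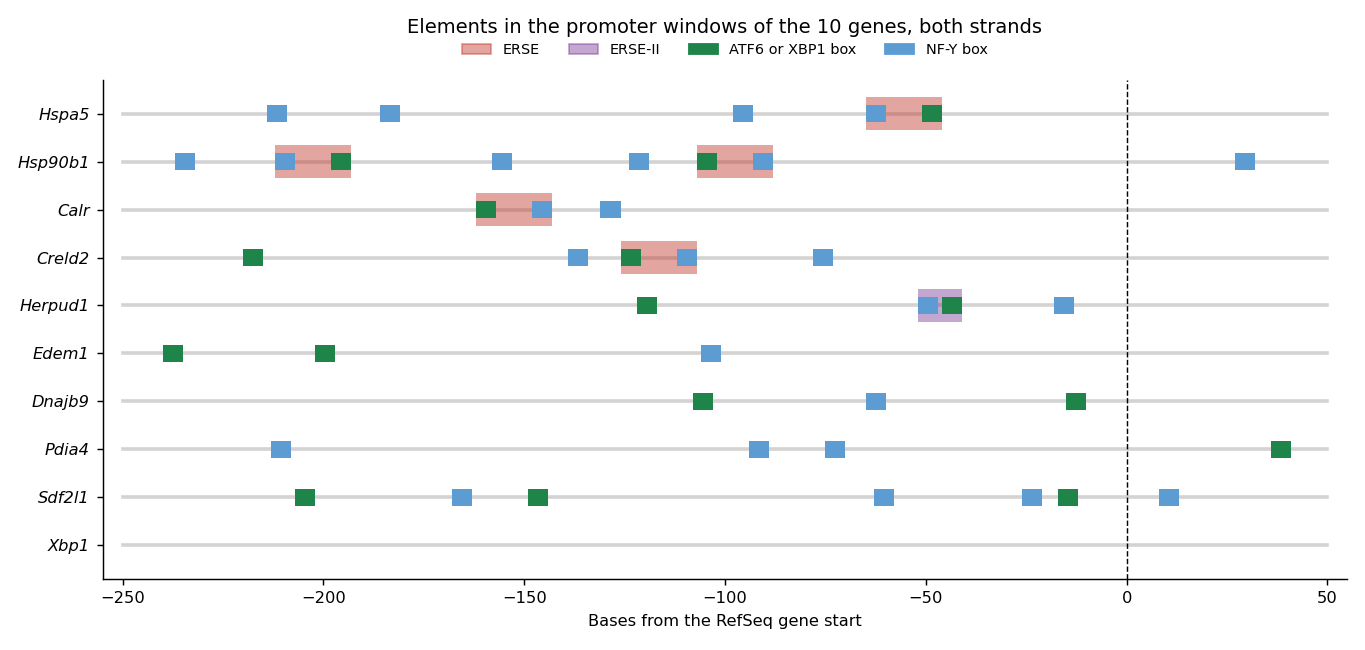
Positions of the ERSE, the ERSE-II, the CCACG box bound by ATF6 or XBP1 and the CCAAT box bound by NF-Y in the promoter windows of the 10 genes, in bases from the RefSeq gene start (dashed line), both strands together. Full elements are in the top 5 rows, and the bottom row (Xbp1) is empty.

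The deposited values are normalized scaled reads per base, scaled within each age by the authors, and are called values below. They summed to 26.9 M to 29.2 M in P21 libraries and 12.5 M to 13.8 M in P60 libraries. How many reads underlie them is not known, so no counting interval can be given, and levels were not tested between ages. Differences were tested with limma on log2(value + 0.5), which understates the change of low genes. A fold is a ratio of group means. A gene passed when its 2-sided adjusted p (Benjamini-Hochberg over all tested genes of the age) was under 0.05. Tardbp averaged 1751 ± 99.5 in P21 cKO, 2141 ± 108 in cHET and 2263 ± 115 in control cord (SD, n = 4 each). At P60 it averaged 803 ± 25.1 in cKO, 921 ± 13.3 in cHET and 883 ± 54.5 in control cord (SD, n = 3 each). It was below cHET in every cKO library at both ages (log2 difference -0.29, adjusted p = 0.00249, and -0.20, adjusted p = 0.0397). The P60 call held in 2 of 9 fits that left out 1 library. It ended without control 2, cHET 1, cHET 2, cHET 3, cKO 1, cKO 2 or cKO 3 (adjusted p = 0.0572 to 0.108), and the authors' deposited table gives q = 0.0633. Against control Tardbp passed at P21 (log2 difference -0.37, adjusted p = 0.000326, limma). At P60 it did not (-0.14, adjusted p = 0.142), and P60 cKO 1 (831.1) lay above P60 control 1 (828.2). All 6 Hox genes used as markers of the spinal cord were present, with summed values of 9993 to 13101 at P21, against 129 to 485 for 3 forebrain markers. The forebrain sum of 485 was that of cHET 1 alone, and the next highest was 218 in cHET 4.

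Across the 8 genes, 1 of 8 passed in cKO against cHET at P21 and 3 of 8 at P60, all higher in cKO. The gene that passed at both ages was Edem1. At P21 the share of all 17989 tested genes that passed upward was 12.6% and the share in either direction was 22.6%, and the count of 1 of 8 is near this background. At P60 13.4% of 16833 tested genes passed upward and 25% in either direction. The median log2 difference of the 8 genes was -0.045 at P21, against -0.0076 for all tested genes, and 0.252 at P60, against 0.00329. Against control, 1 of 8 passed upward at P21 (14.6% of all tested genes did, 26.9% in either direction) and 5 of 8 at P60 (14.5%, and 25.9% in either direction). None of the 8 passed in either direction when cHET was set against control at either age.

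**Figure D2:**
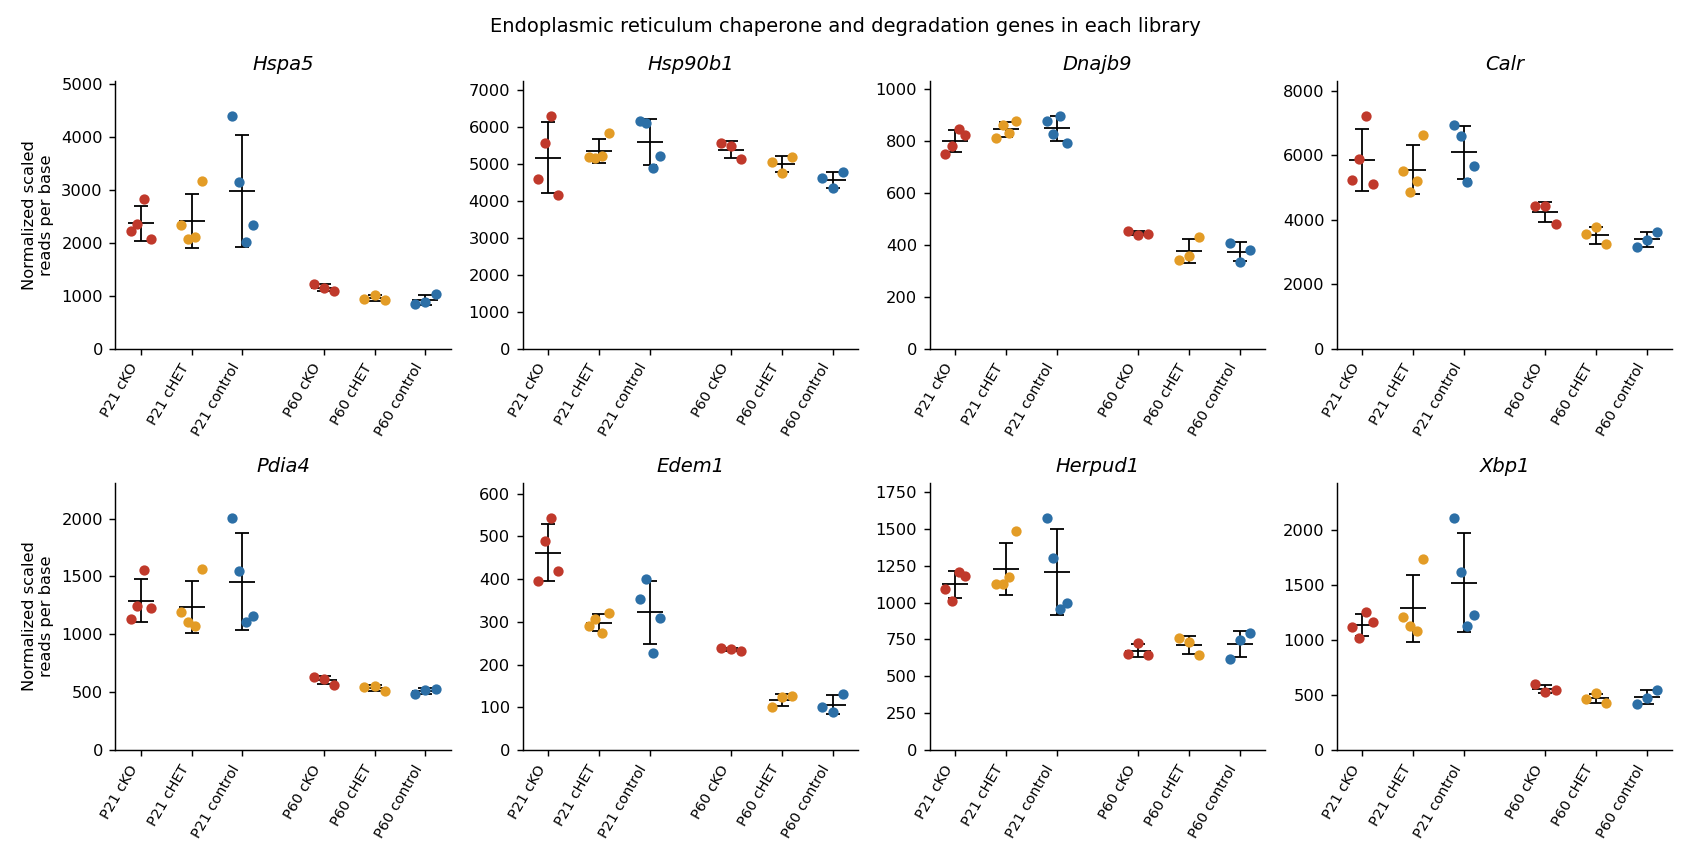
Values (normalized scaled reads per base, axis from 0) of the 8 genes in each library, with 1 point per mouse and the mean ± SD of each group. At P60 the 3 cKO points lie above all cHET points for Hspa5, Dnajb9, Calr, Pdia4, Edem1 and Xbp1, and at P21 the cKO and cHET points overlap for every gene but Edem1.

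Edem1 encodes a lectin-like protein that takes misfolded glycoproteins out of the folding cycle for degradation (chromosome 6, 108828641 to 108859356, plus strand, ENSMUSG00000030104). At P21 its values were 395.8, 489.1, 544.1 and 419.6 in cKO mice 1 to 4, 291.4, 306.7, 274.0 and 320.3 in cHET mice 1 to 4, and 352.9, 400.6, 228.1 and 309.1 in control mice 1 to 4. Every cKO library was above every cHET library, while control 2 lay just above cKO 1. The means were 462 ± 67.4 in cKO, 298 ± 20.0 in cHET and 323 ± 73.3 in control cord (SD, n = 4 each). Against cHET the mean was 1.55-fold higher, a log2 difference of 0.62 ± 0.151 (SE; adjusted p = 0.0078, limma). Against control it was 1.43-fold higher (0.54 ± 0.151, adjusted p = 0.0162). The call against control ended when cKO 3 was left out (0.45, adjusted p = 0.0507). For comparison, the 4 cKO libraries were all above the 4 cHET libraries in 12.7% of all tested genes.

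At P60 the values of Edem1 were 238.9, 235.7 and 231.9 in cKO mice 1 to 3, 102.1, 123.6 and 126.1 in cHET mice 1 to 3, and 100.9, 88.34 and 130.4 in control mice 1 to 3. The cKO libraries lay within 1.03-fold of each other and above all 6 other libraries. The means were 235 ± 3.49 in cKO, 117 ± 13.2 in cHET and 107 ± 21.6 in control cord (SD, n = 3 each). Edem1 was 2.01-fold higher than in cHET (log2 difference 1.01 ± 0.144, adjusted p = 0.000407, limma) and 2.21-fold higher than in control (1.16 ± 0.144, adjusted p = 0.000146). Both calls held in all 17 alternative fits. The difference of 0.39 between the P60 and the P21 difference from cHET did not pass (SE 0.225, adjusted p = 0.465). Among all tested genes its P60 difference from cHET ranked at the 93.4th percentile. In the authors' deposited tables Edem1 has q = 0.00193 at P21 and q = 6.09e-07 at P60 for cKO against cHET.

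Hspa5 encodes BiP, the main Hsp70 chaperone of the ER lumen, which also holds the 3 sensors inactive (chromosome 2, 34771970 to 34777547, plus strand, ENSMUSG00000026864). At P60 its values were 1215, 1151 and 1090 in cKO, 934.0, 1017 and 910.0 in cHET, and 841.4, 875.2 and 1030 in control mice 1 to 3. The lowest cKO library was above the highest library of both other groups. The means were 1152 ± 62.2 in cKO, 954 ± 55.9 in cHET and 916 ± 101 in control cord (SD, n = 3 each). The log2 difference was 0.27 ± 0.0843 against cHET (1.21-fold, adjusted p = 0.0368, limma) and 0.34 ± 0.0843 against control (1.26-fold, adjusted p = 0.0134). The call against cHET was lost in the fits that left out cHET 1 (adjusted p = 0.1), cHET 3 (0.0983), cKO 1 (0.127) or cKO 2 (0.0894), and also with no filter on low values (0.0531). It was lost too without control 1 and cHET 3 together (0.0778). The call against control ended without control 2 (adjusted p = 0.0519) or cKO 1 (0.0559). At P21 the values were 2217, 2353, 2819 and 2062 in cKO, 2328, 2062, 2112 and 3166 in cHET, and 4395, 3148, 2016 and 2339 in control mice 1 to 4. These groups overlapped over most of their range, and control 1 was 2.18 times control 3. The P21 log2 difference was -0.02 against cHET, with a 95% interval of -0.45 to 0.41, and did not pass (adjusted p = 0.959).

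Calr encodes calreticulin, a lectin chaperone that holds newly made glycoproteins in the folding cycle and binds calcium (chromosome 8, 84841850 to 84846934, minus strand, ENSMUSG00000003814). In P60 cord its values were 4425, 4425 and 3872 in cKO, 3562, 3766 and 3236 in cHET, and 3161, 3387 and 3626 in control mice 1 to 3. Each cKO library was above all cHET and control libraries, with cKO 3 closest to them. The means were 4241 ± 319 in cKO, 3521 ± 267 in cHET and 3391 ± 233 in control cord (SD, n = 3 each). Calr rose by 0.27 ± 0.0794 against cHET (1.20-fold, adjusted p = 0.0306, limma) and by 0.32 ± 0.0794 against control (1.25-fold, adjusted p = 0.0121). Leaving out cHET 1 ended the call against cHET (adjusted p = 0.065), as did leaving out cHET 3 (0.0945), cKO 1 (0.106) or cKO 2 (0.106). Leaving out control 1 and cHET 3 together ended it too (0.0713). The call against control was lost without cKO 1 or without cKO 2 (adjusted p = 0.0502 each). At P21 the means were 5863 ± 971 in cKO, 5554 ± 766 in cHET and 6095 ± 817 in control cord (SD, n = 4 each), and the groups overlapped (log2 difference from cHET 0.07, 95% interval -0.19 to 0.34).

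Hsp90b1 encodes GRP94, the Hsp90 chaperone of the ER (chromosome 10, 86690209 to 86705509, minus strand, ENSMUSG00000020048). At P60 its values were 5542, 5472 and 5121 in cKO, 5047, 4746 and 5169 in cHET, and 4599, 4337 and 4758 in control mice 1 to 3. The lowest cKO library lay below the highest cHET library but above all control libraries. The log2 difference of 0.11 ± 0.0595 against cHET did not pass (adjusted p = 0.222), and its 95% interval of -0.02 to 0.24 holds 0. Against control Hsp90b1 rose by 0.24 ± 0.0595 (1.18-fold, adjusted p = 0.0134, limma), a call that ended without control 2 (adjusted p = 0.06) or cKO 1 (0.0555). At P21 the means were 5152 ± 958 in cKO, 5344 ± 318 in cHET and 5582 ± 633 in control cord (SD, n = 4 each), and no comparison passed.

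Pdia4 encodes ERp72, an oxidoreductase that forms and rearranges disulphide bonds (chromosome 6, 47796141 to 47813430, minus strand, ENSMUSG00000025823). The P60 values were 631.2, 618.3 and 566.9 in cKO, 548.1, 553.0 and 510.5 in cHET, and 481.8, 523.6 and 526.9 in control mice 1 to 3. The cKO libraries lay above all others, with cKO 3 nearest to them, while cHET and control overlapped. The difference from cHET of 0.17 ± 0.0714 on the log2 scale did not pass (adjusted p = 0.109, limma), with a 95% interval of 0.01 to 0.33. Against control Pdia4 rose by 0.24 ± 0.0714 (1.19-fold, adjusted p = 0.0276). This call ended without control 1 (adjusted p = 0.0879), control 2 (0.052), cKO 1 (0.102) or cKO 2 (0.0871). It also ended without control 1 and cHET 3 together (0.0716). At P21 the means were 1292 ± 182 in cKO, 1234 ± 226 in cHET and 1454 ± 419 in control cord (SD, n = 4 each), with overlap between the groups.

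Dnajb9 encodes ERdj4, a J-domain partner of BiP that loads it onto misfolded clients and onto IRE1 (chromosome 12, 44205559 to 44210326, minus strand, ENSMUSG00000014905). At P60 its values were 455.3, 438.2 and 442.7 in cKO, 341.0, 355.9 and 428.4 in cHET, and 405.7, 335.2 and 380.1 in control mice 1 to 3. The cKO libraries lay close together and above all others, and cHET 3 stood nearest to them. The log2 difference was 0.25 ± 0.1 against cHET (adjusted p = 0.0918, limma) and 0.26 ± 0.1 against control (adjusted p = 0.0857), and neither passed. Without cHET 3 both passed (0.35, adjusted p = 0.0195, and 0.26, adjusted p = 0.0423). Both also passed without control 1 and cHET 3 together (adjusted p = 0.0137 and 0.0212). At P21 the values were 750.0, 782.0, 845.5 and 824.3 in cKO, 813.0, 862.5, 829.9 and 878.2 in cHET, and 877.4, 828.6, 897.3 and 792.4 in control mice 1 to 4. Here the cKO mean of 800 ± 42.7 was the lowest of the 3 groups, next to 846 ± 29.8 in cHET and 849 ± 47.5 in control cord (SD, n = 4 each), and the groups overlapped (log2 difference from cHET -0.08, adjusted p = 0.421). The change between the ages in the difference from cHET was 0.34 ± 0.112, with an unadjusted p of 0.0073 and an adjusted p of 0.123. It passed in 1 of 26 alternative fits, the one without P60 cHET 3 (0.43, adjusted p = 0.0204).

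Herpud1 encodes HERP, a membrane protein of the ubiquitin ligase complex of ER-associated degradation (chromosome 8, 94386438 to 94395377, plus strand, ENSMUSG00000031770). Its P60 values were 650.6, 727.0 and 644.7 in cKO, 758.4, 734.0 and 643.2 in cHET, and 620.4, 749.0 and 793.1 in control mice 1 to 3. The 3 groups covered nearly the same range. Its log2 difference from cHET was -0.08 ± 0.101 (95% interval -0.30 to 0.15, adjusted p = 0.637, limma), and it was the only one of the 8 genes with a cKO mean below the cHET mean at P60. At P21 the means were 1123 ± 91.5 in cKO, 1228 ± 175 in cHET and 1208 ± 290 in control cord (SD, n = 4 each), and the difference from cHET of -0.12 did not pass (adjusted p = 0.601). Herpud1 passed in none of the comparisons or alternative fits.

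Xbp1 encodes the transcription factor whose mRNA IRE1 splices, and gene values do not separate the spliced from the unspliced form (chromosome 11, 5520659 to 5525893, plus strand, ENSMUSG00000020484). Values at P60 were 599.1, 531.1 and 547.3 in cKO, 464.1, 516.9 and 432.2 in cHET, and 421.4, 472.4 and 550.3 in control mice 1 to 3. Every cKO library was above every cHET library, while control 3 fell within the cKO range. The log2 differences of 0.25 ± 0.105 against cHET (adjusted p = 0.115, limma) and 0.22 ± 0.105 against control (adjusted p = 0.153) did not pass, although the call against control was made without control 3 (0.32, adjusted p = 0.049). At P21 the values were 1115, 1014, 1254 and 1163 in cKO, 1206, 1126, 1079 and 1736 in cHET, and 2110, 1616, 1128 and 1227 in control mice 1 to 4. The cKO libraries spanned the narrowest range, and the highest values belonged to control 1, cHET 4 and control 2. The P21 log2 difference of -0.38 ± 0.179 from control had a 95% interval of -0.76 to 0.01 and did not pass (adjusted p = 0.141).

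Sdf2l1 and Creld2 are given by the authors' deposited tables, without values per library. Sdf2l1 encodes a lumenal partner of ER J-domain proteins (chromosome 16, 17130138 to 17132383, minus strand, ENSMUSG00000022769). In the authors' deposited table its P60 log2 difference was 0.45 for cKO against cHET (q = 0.0169) and 0.43 for cKO against control (q = 0.0252), while the P21 differences were 0.12 (q = 0.791) and 0.12 (q = 0.792). Creld2 encodes an ER stress-inducible protein with disulphide isomerase activity (chromosome 15, 88819646 to 88826683, plus strand, ENSMUSG00000023272). In the authors' deposited table it was at -0.05 for cKO against cHET at P60 (q = 0.868) and at -0.11 at P21 (q = 0.84). By the authors' q under 0.05, 4 of the 10 genes passed in cKO against cHET at P60, all upward: Edem1, Calr, Hspa5 and Sdf2l1. The share of all genes in that deposited table that passed upward was 13.6%. At P21 the authors' deposited table passes 1 of 10, which is Edem1, against 13% of all genes. Against control, the authors' deposited tables pass 1 of 10 at P21 and 6 of 10 at P60, where 15.2% and 14.8% of all genes passed upward.

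**Figure D3:**
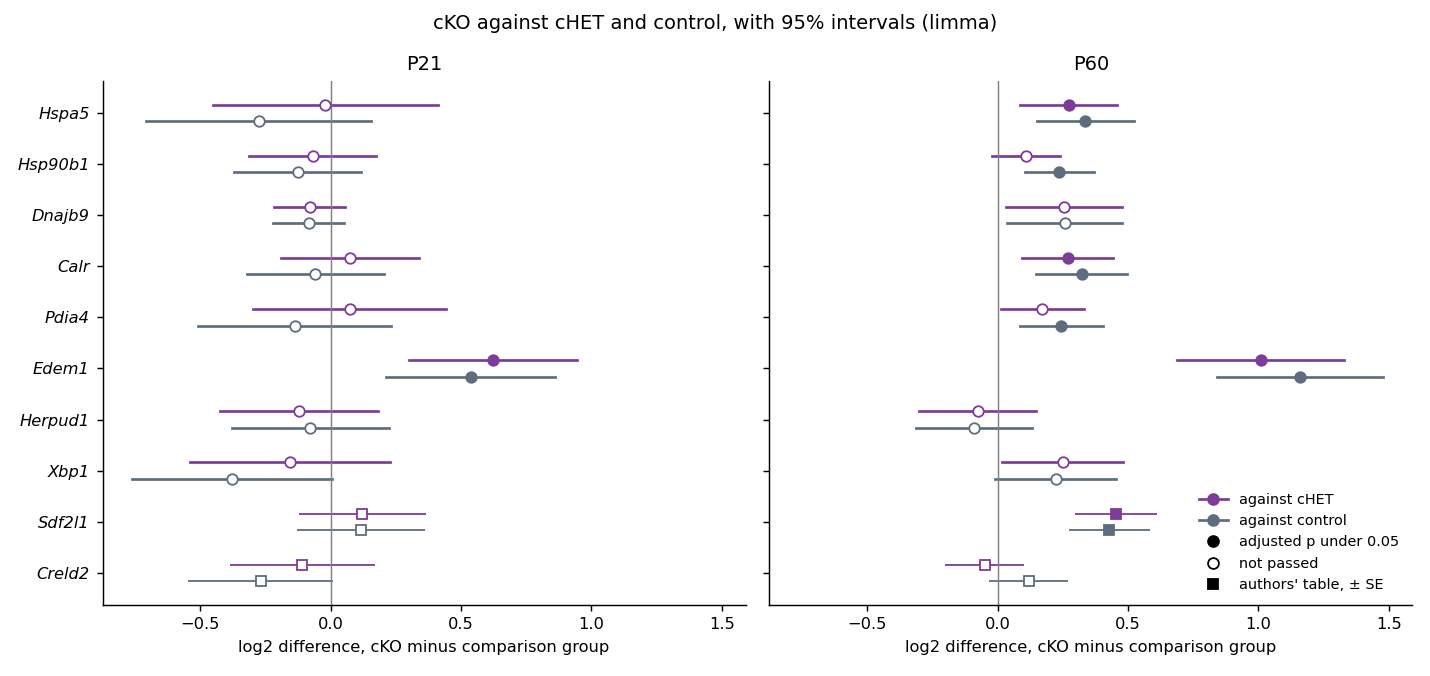
Log2 difference of cKO from cHET (purple) and from control (grey) at P21 (left) and P60 (right). Circles are limma estimates with 95% intervals for the 8 genes with values per library, squares are the authors' deposited estimates ± SE for Sdf2l1 and Creld2, and filled symbols passed. Edem1 is filled in all 4 positions and Herpud1 in none.

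Libraries were also compared by overlap. At P60, 6 of 8 genes had every cKO library above every cHET library, against 20.6% of all tested genes, and 6 of 8 had every cKO library above every control library, against 22%. At P21, 1 of 8 and 0 of 8 did so, against 12.7% and 15% of all tested genes. At P60, 7 of 8 genes had the higher mean in cKO than in cHET, and 3 of 8 did at P21, where 50.4% and 48.8% of all tested genes had a log2 difference above 0. The difference between the ages passed for none of the 8 genes, against 3.2% of 16570 genes tested for it and 1.49% with the higher difference at P60, and for 2483 of those genes its unadjusted p was under 0.05. A p that misses the threshold does not show that the ages were alike: for Hspa5 the difference between them was 0.29 with an SE of 0.266.

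The cHET mice carry Cnp-Cre, so cHET against control bears on Cre with 1 deleted allele. At P21 the 8 log2 differences ran from -0.26 to 0.04 and at P60 from -0.03 to 0.15, and the groups overlapped for all 8 genes at both ages, against 5.13% and 10.2% of all tested genes without overlap. Among all tested genes 0.0111% passed at P21 and 0.0178% at P60. Unadjusted p was under 0.05 for 1284 and 912 genes, and the authors' deposited tables hold 35 and 14 genes at q under 0.05 (0.193% and 0.0827%), none of them among the 10. Hspa5 averaged 2417 ± 512 in P21 cHET cord and 2974 ± 1060 in P21 control cord (SD, n = 4 each), a log2 difference of -0.26 with a 95% interval of -0.69 to 0.18. All 3 comparisons of an age share libraries in pairs, and their values are therefore not independent of each other.

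Within the P21 groups the genes moved together from mouse to mouse. In cKO mice, cKO 3 was the highest library for 8 of 8 genes. In cHET mice, cHET 4 was the highest for 8 of 8, and in control mice, control 1 was the highest for 6 of 8 and control 3 the lowest for 7 of 8. Over all tested genes these libraries were the highest of their group for 26.8% (cKO 3), 32.9% (cHET 4) and 31.9% (control 1), and control 3 was the lowest for 28.6%. The mean log2 deviation of the 8 genes from their group was 0.218 in cKO 3, 0.258 in cHET 4, 0.327 in control 1 and -0.293 in control 3, where the median over all genes deviated by at most 0.023. The labels give cKO 3 and control 3 as male and cHET 4 and control 1 as female. By the mouse numbers in the labels, control 1 and cHET 4 are neighbours, control 2 is close to them and no P21 cKO mouse is. These 3 libraries were the highest 3 of P21 for Hspa5, Xbp1 and Herpud1, but not for the other genes. What the mouse numbers stand for is not given, and their part in this shared movement was not tested. At P60 control 3 was the highest for 7 of 8 genes, against 35.9% of all tested genes. P60 cKO 1 was the highest for 6 of 8 (33.1%) and P60 cKO 3 the lowest for 6 of 8 (38.4%). In P60 cHET mice cHET 2 was the highest for 4 of 8 (31.4%) and cHET 3 the lowest for 5 of 8 (40.8%). At neither age do the 8 genes count as 8 independent observations.

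In P21 control and cHET cord the genes with the widest spread were Hspa5, Pdia4 and Xbp1, whereas in P21 cKO cord Hsp90b1 (18.6%) and Calr (16.6%) had the highest coefficients of variation. The coefficient of variation of Hspa5 was 13.8% in P21 cKO, 21.2% in cHET and 35.6% in control cord, and at P60 it was 5.4%, 5.86% and 11%. The larger P21 spread in cHET and control cord rests on cHET 4 (3166), control 1 (4395) and control 2 (3148). The remaining P21 cHET libraries lay at 2062 to 2328, and control 3 and control 4 at 2016 and 2339. For Xbp1 the coefficient was 8.78% in P21 cKO, 23.6% in cHET and 29.3% in control cord, and its highest values lay in the same libraries. Dnajb9 stayed within 5.34% in P21 cKO, 3.52% in cHET and 5.59% in control cord. The other genes of ER folding showed the same P21 libraries on top less completely: cKO 3 was the highest for 14 of 24, cHET 4 for 15 of 24 and control 1 for 14 of 24. In the PERK and ATF4 list cHET 4 was the highest for 15 of 17 genes, whereas cKO 3 was so for 5 of 17 and control 1 for 5 of 17. Among cKO mice, cKO 4 led that list with 9 of 17. It also led ER-associated degradation with 12 of 21 (cKO 3: 7 of 21) and translocation and export with 10 of 22 (cKO 3: 5 of 22). Over all tested genes cKO 4 was the highest for 33.2% and cKO 3 for 26.8%. Summed microglial markers were 81737 in cKO 3 and 13096 in control 1, each within the range of its group, and 13275 in cHET 4, the lowest of its group. The mature oligodendrocyte sum was the highest of its group in cHET 4 (2590990, against 2312730 to 2582670 in the other cHET mice). In cKO 3 (1798370) and control 1 (2205990) the oligodendrocyte sum lay within the range of its group. The part of these markers in the swing was not tested.

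**Figure D4:**
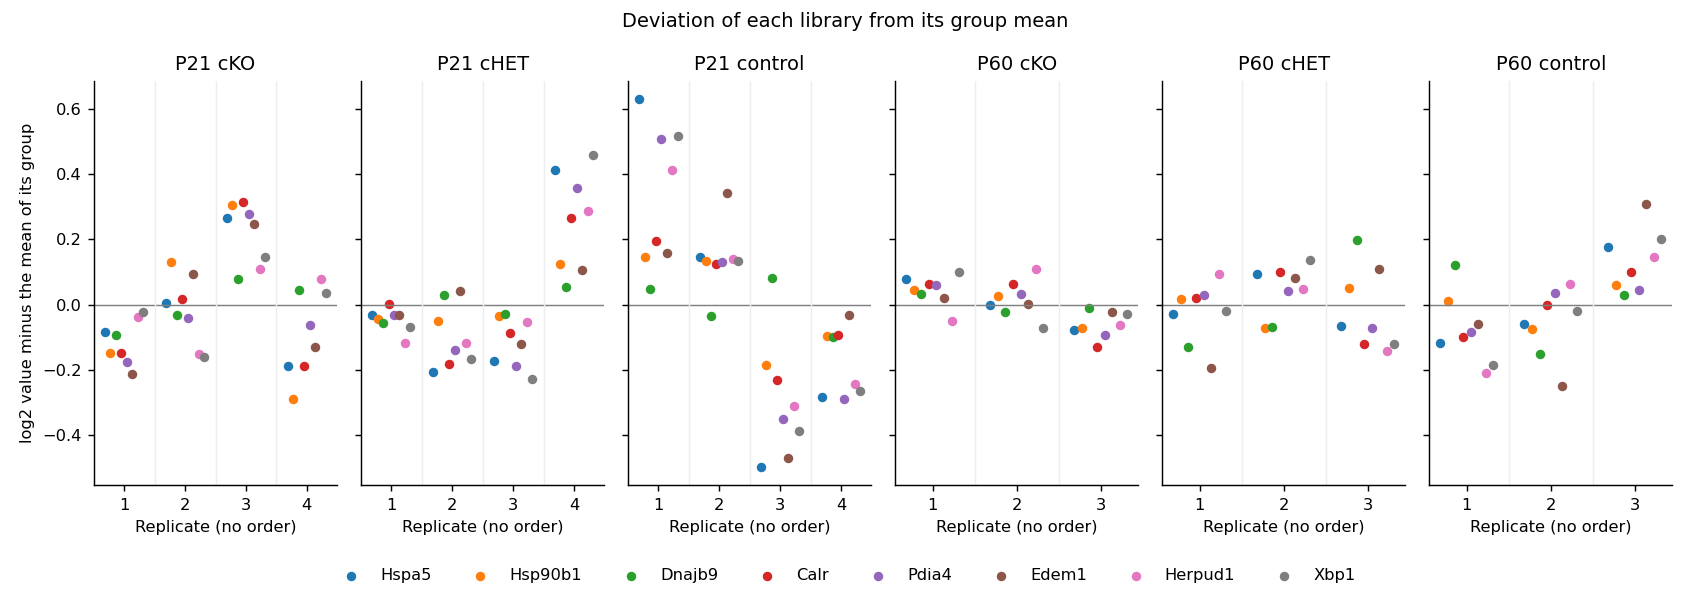
Log2 value of each of the 8 genes in each library minus the mean of its group (zero line), with 1 column of points per mouse. The points of cKO 3, cHET 4 and control 1 at P21 lie above 0 for every gene, and all but 1 of the points of control 3 lie below it.

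The rest of the pathway was followed in 5 lists, and counts are of cKO against cHET unless control is named. The lists were chosen with earlier results of these data known, so the shares below describe the lists and do not test them. The counts are to be read against all tested genes, of which 12.6% rose at P21 and 13.4% at P60, and 22.6% and 25% passed in either direction. Of 24 tested genes of ER folding and quality control outside the 8, 6 rose and 0 fell at P21 (median log2 difference 0.023), and 5 rose and 1 fell at P60 (median 0.12). The shares that rose were 25% and 20.8%, against 12.6% and 13.4% of all tested genes. Ppib, a prolyl isomerase of the ER, averaged 11114 ± 557 in P21 cKO and 9392 ± 663 in P21 cHET cord (SD, n = 4 each), and it rose at both ages, by 0.24 (adjusted p = 0.00778, limma) and 0.44 (adjusted p = 0.000473). P4hb, protein disulphide isomerase, did so too, by 0.20 (adjusted p = 0.0219) and 0.43 (adjusted p = 0.00148). Pdia3, which pairs with calreticulin to form disulphides in glycoproteins, was at 0.09 at P21 (adjusted p = 0.63) and rose by 0.42 at P60 (adjusted p = 0.00322). Erp29, a lumenal folding factor, rose by 0.27 at P21 (adjusted p = 0.00675) and was at 0.15 at P60 (adjusted p = 0.178). Txndc5, another disulphide isomerase, rose by 0.18 and 0.27 (adjusted p = 0.00899 and 0.0126), and Fkbp14, a prolyl isomerase that acts on collagen, by 0.32 and 0.40 (adjusted p = 0.0213 and 0.038).

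Some of these calls changed with the fit. At P21 P4hb did not pass without cHET 2 (adjusted p = 0.0634), cHET 3 (0.0668) or cKO 3 (0.0539), and Fkbp14 not without cKO 1 (0.0629), cKO 2 (0.0619), cHET 1 (0.0507) or cHET 3 (0.0566). At P60 Txndc5 did not pass without cKO 2 (0.0504), and Fkbp14 not without cKO 2 (0.143), cKO 3 (0.0514), control 3 (0.0503), cHET 1 (0.119), cHET 2 (0.0648) or cHET 3 (0.065). Under quantile normalization Fkbp14 did not pass at P21 (0.22, adjusted p = 0.122) or at P60 (0.27, adjusted p = 0.143), and its P60 call also ended with no filter on low values (0.0507) and with only the 2 groups compared (0.0624). The P60 decrease was in Hspa13 (-1.13, adjusted p = 0.0398), an Hsp70-like protein named after its values were seen. It held in 5 of 9 fits that left out 1 library and ended without cHET 1 (0.125), cHET 2 (0.13), cKO 1 (0.134) or cKO 2 (0.119), and with no filter on low values (0.071). Its mean over libraries is not the one in the authors' deposited table, which gives 0.16 (q = 0.306), so its direction is uncertain, and among genes with equal values in both kinds of file 5 rose and 0 fell.

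In ER-associated degradation, 3 of 21 tested genes rose at P21 (median 0.025) and 4 of 21 at P60 (median 0.095), with 0 lower at either age. The shares that rose, 14.3% and 19%, compare with 12.6% and 13.4% of all tested genes, and the P21 share is near that background. Os9, a lectin that hands glycoproteins to the HRD1 ligase, averaged 2951 ± 123 in P60 cKO and 2303 ± 45.3 in P60 cHET cord (SD, n = 3 each), and it rose by 0.32 at P21 (adjusted p = 0.000163, limma) and 0.36 at P60 (adjusted p = 0.000655). Edem2, which starts mannose trimming of glycoproteins bound for degradation, rose by 0.31 (adjusted p = 0.0137) and 0.55 (adjusted p = 0.000641). Herpud2, a relative of Herpud1, rose by 0.20 (adjusted p = 0.0489) and 0.44 (adjusted p = 0.00204). Selenos, a membrane selenoprotein that recruits the p97 ATPase, rose by 0.25 at P60 (adjusted p = 0.0216, limma) and was at 0.18 at P21 (adjusted p = 0.0867). The P21 call of Herpud2 held in 3 of 12 fits that left out 1 library: it ended without control 2, control 4, any of the 4 cHET libraries, cKO 2, cKO 3 or cKO 4 (adjusted p = 0.0527 to 0.124), and also with no filter on low values (0.0705) and with sex as a covariate (0.0519). Selenos passed at P21 without cHET 2 (0.0458), and its P60 call ended without cHET 2 (0.0767), cHET 3 (0.0538), cKO 2 (0.0742) or cKO 3 (0.0601).

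Of the 14 sensors and transcription factors, 1 rose at P21 (median 0.092) and 3 at P60 (median 0.14), and 0 fell. These are 7.14% and 21.4% of the list, against 12.6% and 13.4% of all tested genes, so the P21 share is below that background. Against control, 2 of 14 rose at P21 (14.3%) and 6 of 14 at P60 (42.9%). All tested genes gave 14.6% and 14.5%, and the P60 controls also differ in sex and age. None of the 3 sensors passed against cHET. Ern1 averaged 255 ± 26.6 in P21 cKO and 210 ± 10.2 in P21 cHET cord (SD, n = 4 each; 0.28, adjusted p = 0.0563, limma) and was at 0.32 at P60 (adjusted p = 0.0749). It passed without P21 cKO 4 (adjusted p = 0.022), at P21 among genes with a mean of at least 50 (0.0449), and without P60 cHET 2 (0.0419). Atf6 was at -0.06 (adjusted p = 0.605) and 0.14 (0.166), and Eif2ak3 at 0.09 (0.446) and 0.11 (0.764). Rtcb, the ligase that joins Xbp1 after IRE1 cuts it, rose by 0.39 at P21 (adjusted p = 0.000124) and 0.23 at P60 (adjusted p = 0.0155). Creb3l2 and Creb3l1, ER-bound transcription factors related to ATF6, rose at P60 by 0.55 (adjusted p = 0.00149) and 0.68 (adjusted p = 0.0352), and were at 0.08 (adjusted p = 0.593) and 0.29 (adjusted p = 0.172) at P21. The P60 call of Rtcb ended without cKO 1 (0.0566) or cKO 2 (0.0509), and that of Creb3l1 without cHET 1 (0.113), cHET 2 (0.0686), cHET 3 (0.0529), cKO 1 (0.0614) or cKO 2 (0.132). Creb3l1 did not pass with no filter on low values (0.0584) or under quantile normalization (0.0881) either.

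The PERK and ATF4 list held the steepest differences. Of 17 tested genes 6 rose and 1 fell at P21 (median 0.059), and of 16 tested 6 rose and 1 fell at P60 (median 0.20). The shares that rose were 35.3% and 37.5%, where all tested genes gave 12.6% and 13.4%. Atf3, a stress-induced transcription factor, averaged 530 ± 80.7 in P21 cKO and 50.5 ± 10.7 in P21 cHET cord (SD, n = 4 each), and 361 ± 39.3 in P60 cKO and 41.2 ± 21.1 in P60 cHET cord (SD, n = 3 each). It rose by 3.39 (adjusted p = 5.02e-08, limma) and 3.26 (adjusted p = 3.03e-05). Cebpb, a transcription factor of acute-phase and myeloid genes, rose by 1.11 (adjusted p = 4.72e-07) and 1.60 (adjusted p = 8.6e-05). Nupr1, a small stress-induced nuclear protein, rose by 1.72 (adjusted p = 2e-04) and 2.13 (adjusted p = 1.51e-05). Vldlr, a lipoprotein receptor, fell by 0.37 (adjusted p = 0.00234) and 0.56 (adjusted p = 0.00107).

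The other named genes of this list moved less than Atf3, Cebpb and Nupr1 or did not pass. Ddit4, an inhibitor of mTORC1, rose by 0.76 at P21 (adjusted p = 0.00136, limma) and was at 0.52 at P60 (adjusted p = 0.069), where it passed without cHET 2 (0.0111). Ppp1r15a, which encodes GADD34 and reverses the PERK block of translation, rose by 0.60 (adjusted p = 0.00589) and 0.73 (adjusted p = 0.0284). Its P60 call ended without cHET 2 (0.0558), cHET 3 (0.0887), cKO 1 (0.101) or cKO 2 (0.0525), and with no filter on low values (0.0513). Ddit3, which encodes CHOP, the factor tied to cell death under ER stress, was at 0.06 at P21 (adjusted p = 0.835) and 0.24 at P60 (adjusted p = 0.165). Atf4 is taken from the authors' deposited table, which gives -0.12 (q = 0.489) at P21 and 0.06 (q = 0.673) at P60. Several genes of this list are also known to respond to signals other than ER stress.

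Of 22 tested genes of translocation into and export from the ER, 6 rose and 0 fell at P21 (median 0.097), and 7 rose and 2 fell at P60 (median 0.17). In this list 27.3% and 31.8% rose, compared with 12.6% and 13.4% of all tested genes. Ssr4, of the translocon-associated complex, averaged 598 ± 43.6 in P60 cKO and 462 ± 26.1 in P60 cHET cord (SD, n = 3 each) and rose by 0.37 at both ages (adjusted p = 0.00213 and 0.00364, limma). Sec61b, of the translocation channel, rose by 0.30 and 0.81 (adjusted p = 0.0305 and 0.00206). Sec11a, a catalytic subunit of signal peptidase, rose by 0.25 and 0.54 (adjusted p = 0.0421 and 0.00428). Ssr3, a partner of Ssr4, and Spcs2, of signal peptidase, rose at P60 by 0.40 and 0.26 (adjusted p = 0.00322 and 0.00762) and were at 0.14 and 0.10 at P21 (adjusted p = 0.0664 and 0.281). Sec24d, which selects cargo for COPII vesicles, rose by 0.50 at P21 (adjusted p = 0.00538) and was at 0.34 at P60 (adjusted p = 0.33). The P21 call of Sec61b ended without cHET 1 (0.0548), cHET 2 (0.0632), cHET 3 (0.0967), cKO 2 (0.0983) or cKO 4 (0.076), under quantile normalization (0.0648) and with only the 2 groups compared (0.0663). That of Sec11a held in 2 of 12 such fits and ended without any of the 4 control libraries, cHET 1, cHET 2, cHET 3, cKO 1, cKO 3 or cKO 4 (0.0515 to 0.114), and it also ended with no filter on low values (0.0551), under quantile normalization (0.0587) and with only the 2 groups compared (0.0828). Under quantile normalization the P21 call of Sec24d ended (0.32, adjusted p = 0.0507), and Ssr3 passed at P21 (adjusted p = 0.027), as it did with sex as a covariate (0.036). The P60 decreases, named after their values were seen, were in Sec11c (-0.28, adjusted p = 0.0254) and Ssr1 (-0.23, adjusted p = 0.0457). The Sec11c call held in 5 of 9 fits that left out 1 library and ended without cHET 1 (0.064), cHET 3 (0.0795), cKO 1 (0.0839) or cKO 2 (0.0645). At P21 Sec11c was at -0.14 (adjusted p = 0.229) and passed without cKO 3 (0.0303). The Ssr1 call held in 3 of 9 such fits and ended without control 2, control 3, cHET 1, cHET 2, cHET 3 or cKO 1 (0.0608 to 0.157), with no filter on low values (0.0626), under quantile normalization (0.0653) and with only the 2 groups compared (0.071). The values of Ssr1 differ between the kinds of file, and the authors' deposited table gives 0.13 (q = 0.134).

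**Figure D5:**
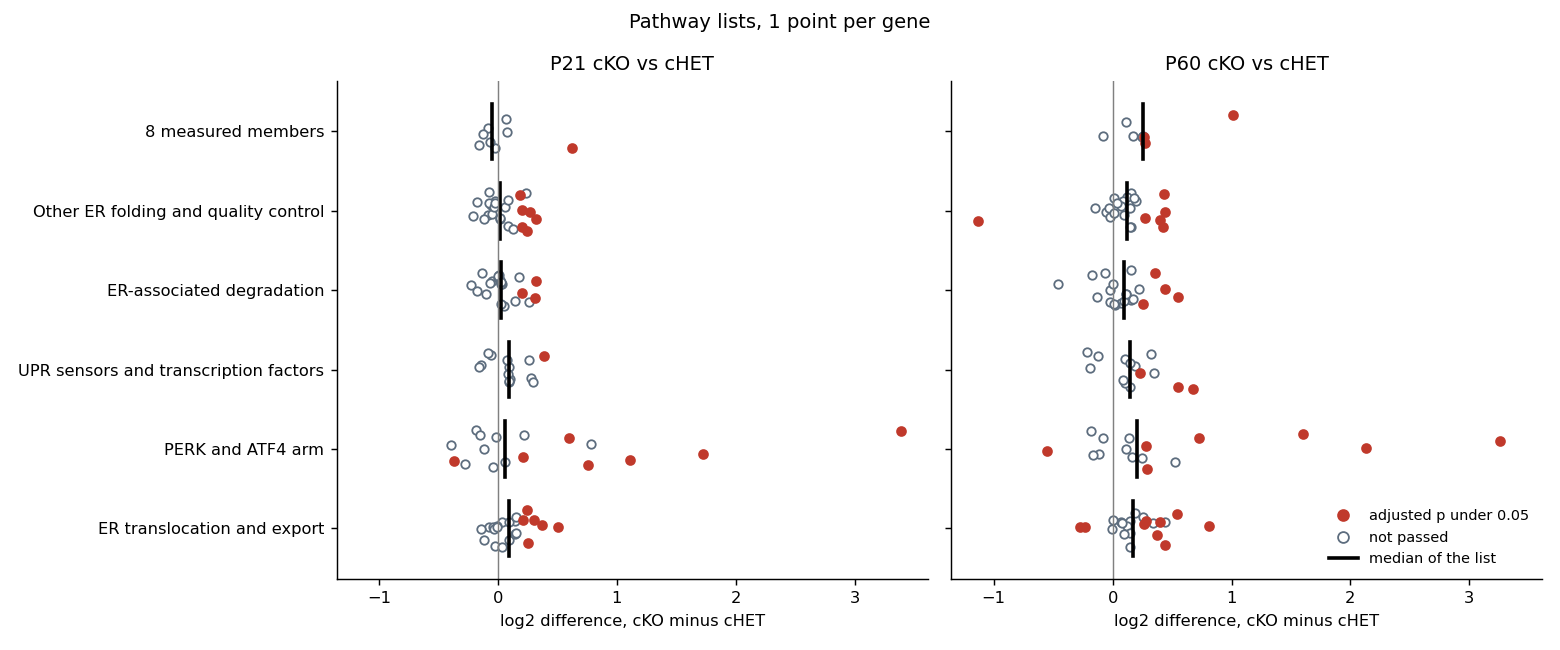
Log2 difference of cKO from cHET for every tested gene of the 8 and of 5 further lists at P21 (left) and P60 (right), 1 point per gene, with filled points for adjusted p under 0.05 and a bar at the median. The median of the 8 is -0.045 at P21 and 0.252 at P60, and the points far to the right in the PERK and ATF4 list are Atf3, Nupr1 and Cebpb.

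Markers of several cell types also differed between cKO and cHET cord, at P21 as well as at P60. All 9 microglial markers rose in cKO against cHET at both ages, with a median log2 difference of 2.67 at P21 and 2.56 at P60. Their summed values at P21 lay between 60258 and 83207 in cKO libraries, between 13275 and 16119 in cHET libraries and between 12959 and 14609 in controls. The P60 sums lay between 29413 and 40199 in cKO libraries, between 7337 and 7899 in cHET libraries and between 6083 and 7381 in controls. Summed markers of mature oligodendrocytes, 9 genes, lay between 304224 and 359923 in P60 cKO libraries, between 503913 and 583358 in P60 cHET libraries and between 418596 and 469756 in P60 controls, and 7 of 9 fell and 2 of 9 rose in cKO against cHET. At P21, where 5 of 9 fell and 2 of 9 rose, those sums lay between 1769970 and 2085650 in cKO libraries, between 2312730 and 2590990 in cHET libraries and between 2058700 and 2355170 in controls. Astrocyte sums, 6 genes of which 5 rose at P21 and 3 at P60, lay between 119006 and 145466 in P60 cKO libraries, between 53511 and 59613 in P60 cHET libraries and between 52881 and 54157 in P60 controls. Of 4 markers of oligodendrocyte precursors 3 rose at P21 and 4 at P60, and of 7 neuronal markers 7 fell at P21 and 5 at P60. Among markers of endothelial and mural, Schwann, plasma and B, T, neutrophil and red blood cells, 1 Schwann marker rose and 2 endothelial and mural markers fell at P21, and 1 plasma and B cell marker fell at P60. Single libraries stood apart in some sums. The Schwann sum was 861 in P60 cHET 2, against 76.5 in cHET 1 and 71.0 in cHET 3. The red blood cell sum was 42975 in P60 control 1, against 11062 in control 2 and 8859 in control 3. Of all these markers S100a9, of neutrophils, was at 0 in all libraries of 1 group, the P60 controls. The part of these shifts in the differences of the 8 genes was not tested.

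Genes with an ERSE in their window were also counted as a group formed by sequence alone. Leaving out the 4 named above, 33 other genes held one and 15 of them were tested. At P21, 1 rose (Pan2) and 1 fell (Spats2l) in cKO against cHET, and at P60 1 rose (Alg12) and 3 fell (Acacb, Adcy3 and Zfp57), all named after their values were seen. Over all tested genes 22.6% passed in either direction at P21 and 25% at P60, and the 4 of 15 at P60 are near that share. The median log2 difference of the 15 was -0.045 at P21 and -0.13 at P60. Among the genes whose window is printed above, Hspa5 and Calr, each with 1 ERSE, and Edem1, with none, passed at P60. Hsp90b1, with 2, and Herpud1, with the ERSE-II, did not pass against cHET, and neither did Creld2, with 1 ERSE, in the authors' deposited table (-0.05, q = 0.868).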

How the data were processed

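RNA-seq of 21 spinal cords was used, in 6 groups set by the labels. The deposited per-library signal is, by the name the authors gave the file, normalized scaled reads per base. Per the submitters' processing notes kallisto 0.43.0, sleuth 0.28.1 and GRCm38 were used, and the annotation release is not given in the sources used here. The authors' deposited tables hold effect sizes as a natural log of value + 0.5, which were divided by the natural log of 2, and the authors' p-values and q-values. Means agreed within 1e-06 between both kinds of file for the 8 genes at both ages. They differed for 901 genes at P21 and 871 at P60.

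Genes reaching a value of 5 in at least 4 (P21) or 3 (P60) libraries were tested with limma 3.58.1 in R 4.3.3 (trend, log2(value + 0.5), the 3 genotypes of an age together, Benjamini-Hochberg, threshold 0.05). The difference between ages is an interaction over all 6 groups. SE is the moderated standard error and SD is over libraries. The test was tried on simulated data. Promoter windows are RefSeq's, searched in Python 3.11.15, and gene positions are from GENCODE M21. The pathway and marker lists were taken from textbook roles. Those named are up to 6 per list with the smallest p among genes passing in cKO against cHET at either age, plus Ern1, Atf6, Eif2ak3, Atf4 and Ddit3. The 10 genes and the lists were chosen with earlier results of these data known. Alternatives were other pseudocounts, filters, scalings and fits, the authors' test, and leaving out each library. Added after seeing the data was the use of only genes with equal values in both kinds of file.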

Additional observations from a re-analysis of the deposited data

Results flagged for a closer look

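In groups of 4, the library farthest from the others was set against Dixon's critical value for 4 samples, in 24 groups (8 genes in 3 genotypes at P21), and 2 exceeded it. Hsp90b1 in P21 cHET was 5820 in cHET 4, against 5181, 5161 and 5215 in cHET 1 to 3, a ratio of gap to range of 0.918. Herpud1 in P21 cHET was 1488 in cHET 4, against 1124, 1125 and 1176 in cHET 1 to 3, a ratio of 0.859. Chance flags about 1 in 20 such groups. Both are the library that was highest of its group for 8 of 8 genes. Without cHET 4 no gene of the 8 changed its call in cKO against cHET at P21.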

How the results depend on the processing

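The number of the 8 genes that passed stayed at 1 in cKO against cHET at P21 in all 12 fits without 1 library, and at 0 in cHET against control at both ages. It ranged from 0 to 1 in cKO against control at P21 (0 without cKO 3), from 1 to 3 in cKO against cHET at P60 (1 without cHET 1, cKO 1 or cKO 2) and from 1 to 6 in cKO against control at P60 (2 without control 2, 1 without cKO 1, 3 without cKO 2). For the difference between ages it ranged from 0 to 1. With P60 control 1 and P60 cHET 3 left out together, 2 passed against cHET and 5 against control. Against cHET, Hspa5 (adjusted p = 0.0778, limma) and Calr (0.0713) were lost there and Dnajb9 was gained (0.0137). Against control, Pdia4 was lost (0.0716) and Dnajb9 gained (0.0212). Among list genes the P60 calls of Fkbp14 (0.0763), Selenos (0.0572), Creb3l1 (0.0606) and Ssr1 (0.0762) against cHET ended in this fit. Edem1 passed against cHET in 20 of 20 alternatives at P21 and 17 of 17 at P60, Hspa5 at P60 in 11 of 17 and Calr in 12 of 17. No difference of the 8 genes that passed changed direction. Among list genes, Hspa13 (0.155) and Ssr1 (0.127) had the opposite sign by the authors' test at P60. No paired analysis was possible because the labels give mouse numbers and no replicate number shared between groups. The number of reads behind each value is unknown, so the precision that depth gives cannot be stated, and 3 mice per group at P60 limit each estimate.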
